A study of Mus musculus with 12 samples.

Results

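A group of 10 activity-induced neuronal genes was followed in the medial prefrontal cortex (mPFC) of mice after chronic social defeat (CSD): Egr1, Egr2, Egr3, Egr4, Nr4a1, Nr4a2, Nr4a3, Arc, Npas4 and Homer1. They were chosen by name, and each of the 10 was represented by 1 probe set annotated to that gene alone, out of 17656 named genes measured. Tissue came from 12 wild type male C57BL/6 mice, with 1 array per mouse. The 6 CSD mice each lived for 14 days in the cage of an aggressive CD-1 male behind a perforated partition, which was taken out for 5 min per day, and their mPFC was collected 24 h after the last encounter. The 6 homecage (HC) controls were housed in groups, so defeat and housing differed together and cannot be told apart. Before the tissue was taken, mice were anesthetized with isoflurane and perfused with cold saline, and the part of this handling in the levels was not tested. Mice of both groups had also been through social interaction and light/dark tests. According to the paper, these tests decided which defeated mice were included, so the CSD group was selected on behavior. No such selection is stated for HC mice.

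Activity-induced genes are transcribed within minutes of strong synaptic input, when calcium entry and kinase signaling switch on the transcription factors CREB and SRF already bound near their start sites. Their transcripts are short-lived, so their level in a tissue sample follows the recent firing of its neurons. Most encode transcription factors (the Egr zinc finger proteins, the Nr4a orphan nuclear receptors and Npas4, which neurons induce almost exclusively through calcium), whereas Arc and Homer1 encode proteins that act at excitatory synapses.

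The stretch before the transcript start was also examined. Whether its motifs have a part in how these genes varied between mice was not tested. RefSeq promoter sequences (GRCm38.p6, 250 bases before to 50 after each start) were matched for 7 of the 10 genes. Promoter sequences of Egr1, Egr3 and Arc were not used here. TGACG on either strand, the core of the cAMP response element (CRE) to which CREB binds, was present in 7 of 7 matched genes and in 23.0% of the 27025 genes with a listed promoter. A gene counted if any of its listed starts held the motif, and the core was near 3 of the 5 listed starts of Egr2 and 1 of the 2 of Homer1. The full palindrome TGACGTCA, which contains that core on both strands, was found in 0 of 7 and in 2.03% of all genes. The CArG box, the motif of SRF, was found in Egr2 alone (1.81% of all genes). GCGNGGGCG on either strand, the motif of the Egr proteins, was found in Nr4a1 and Nr4a2 (6.27% of all genes), and AAAGGTCA, the motif bound by Nr4a proteins, in 0 of 7 (1.7% of all genes). These are matches of letters, and binding was not measured.

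The promoters of 4 genes are shown because they hold each kind of match and come from the genes with the widest (Npas4) and narrowest (Homer1) spread between mice. All are written 5′ to 3′ on the strand of the gene, with CRE cores, the CArG box of Egr2 and the Egr motif of Nr4a1 in capitals. Npas4 is chr19:4989972-4990221 on the minus strand. Nr4a1 is chr15:101266596-101266845, Homer1 (the first of 2 listed starts) is chr13:93303507-93303756 and the 22 bases of Egr2 are chr10:67537797-67537818, all on the plus strand.
Npas4: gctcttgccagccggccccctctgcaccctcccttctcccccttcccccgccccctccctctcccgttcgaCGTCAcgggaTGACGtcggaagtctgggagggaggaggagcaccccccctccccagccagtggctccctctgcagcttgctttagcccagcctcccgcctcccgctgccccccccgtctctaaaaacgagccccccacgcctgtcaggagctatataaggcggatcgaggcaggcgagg
Nr4a1: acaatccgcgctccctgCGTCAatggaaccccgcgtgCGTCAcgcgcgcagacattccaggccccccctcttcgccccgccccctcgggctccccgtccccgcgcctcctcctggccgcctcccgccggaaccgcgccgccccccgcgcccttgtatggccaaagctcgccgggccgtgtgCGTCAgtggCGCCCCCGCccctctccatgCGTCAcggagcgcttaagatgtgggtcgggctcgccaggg
Homer1: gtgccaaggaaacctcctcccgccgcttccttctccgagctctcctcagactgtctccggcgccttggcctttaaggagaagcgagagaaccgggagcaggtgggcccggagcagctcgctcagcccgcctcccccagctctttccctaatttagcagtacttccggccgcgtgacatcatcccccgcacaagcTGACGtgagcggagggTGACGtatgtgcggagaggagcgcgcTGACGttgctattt
Egr2: CCATATATGGgcagcgaCGTCA

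At the first listed start that held any, the number of CRE cores was 2 in Npas4, Egr2 and Egr4, 3 in Homer1 and 4 in Nr4a1, Nr4a2 and Nr4a3. In Homer1 they began at bases -56, -40 and -14 from the start. In Npas4 they began at -179 and -169. The Egr motif of Nr4a1 lay between bases -60 and -52, next to the core that began at -69.

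**Figure D1:**
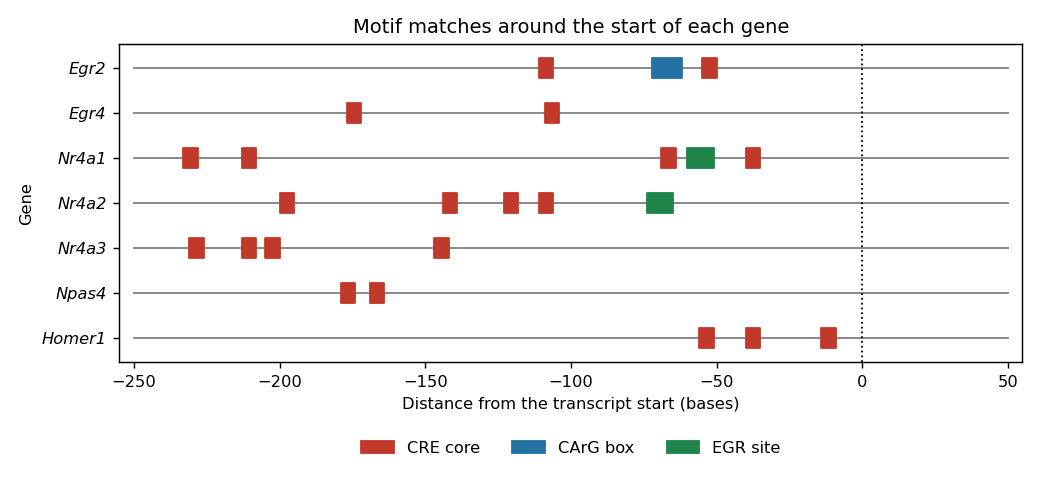
Motif matches by distance from the transcript start in bases (horizontal axis) for the 7 genes with a listed promoter. Each bar is a match on either strand: CRE cores in red, the CArG box in blue and Egr motifs in green. For genes with several starts, the first start whose window holds a CRE core is drawn. The 2 to 4 cores of each gene all lie before the start.

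All values below are log2 expression on the robust multi-array average (RMA) scale, on which 1 unit is a doubling. Levels are compared between mice for the same gene, never between genes. No gene of the 10 passed the test between CSD and HC mice. In the fit across 29838 probe sets (limma, Benjamini-Hochberg adjusted p under 0.05 and at least 1.2-fold), 0 of 10 were called, as were 0.0% of all named genes. Without adjustment (p under 0.05 and 1.2-fold), 0 of 10 passed in limma and 0 in the methods' t-test, against 0.68% of named genes and 1.36% of all probe sets in limma. With 1 mouse left out, Npas4 passed this threshold without HC replicate 1, and Egr1 and Nr4a1 passed it without CSD replicate 8, making 1 and 2 of 10. The groups overlapped for 10 of 10 genes, and 1.01% of named genes did not overlap. Mean expression was lower in CSD mice for 6 genes and higher for 4. The median difference was -0.08 over the 10 genes and -0.01 over all genes.

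Npas4, the calcium-dependent transcription factor that directs inhibitory synapse formation, showed the greatest difference among the 10. In HC mice its level was 7.88 at the lowest, 8.95 at the median and 9.96 at the highest. In CSD mice it was 7.97 at the lowest, 8.33 at the median and 8.97 at the highest. All 6 CSD mice lay below the HC mean, but 3 HC mice lay within the CSD range or below it. The mean was 8.98 ± 0.83 in HC and 8.37 ± 0.35 in CSD (SD, n = 6 each), a difference of -0.61 (SE 0.33, 95% interval -1.32 to 0.10) with a limma adjusted p of 0.676 and an exact permutation p of 0.134 (two-sided, 924 splits). HC mice spanned a 4.22-fold range and CSD mice a narrower one. An exact permutation test of the distances from each group's median gave p = 0.0195, the smallest of 10 such tests and not adjusted for their number, and p ranged from 0.284 to 0.929 for the other 9 genes. HC replicates 2 and 4 set the top of the range: without HC replicate 4 the difference was -0.42, and without HC replicate 1, the lowest array, it was -0.83. It was -0.38 with array weights and -0.32 without HC replicates 2 and 6.

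Arc encodes a capsid-like synaptic protein that takes AMPA receptors out of the membrane. Its level was 9.24, 9.87 and 10.30 in HC mice and 8.87, 9.51 and 10.09 in CSD mice (lowest, median and highest). The groups overlapped across most of their range. The means of 9.81 ± 0.42 and 9.49 ± 0.44 differed by -0.32 (SE 0.22; limma adjusted p = 0.770, exact permutation p = 0.225), and by -0.20 without CSD replicate 2.

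Egr1 (Zif268), a zinc finger factor required for lasting synaptic potentiation, ranged from 9.84 through a median of 10.04 to 10.38 in HC mice. In CSD mice it ranged from 9.42 through 9.94 to 10.33. CSD replicates 2 and 6 lay below every HC mouse, and the other 4 lay inside the HC range. The difference was -0.22 (SE 0.15; limma adjusted p = 0.766, exact permutation p = 0.219), and -0.13 without CSD replicate 2. Nr4a1 (Nur77), an orphan receptor rapidly induced by activity, gave means of 10.44 ± 0.35 in HC and 10.17 ± 0.35 in CSD, a difference of -0.27 (SE 0.18; limma adjusted p = 0.765) that was -0.18 without HC replicates 2 and 6. Differences for Egr2 and Egr4 were -0.06 and -0.09, each smaller than its standard error of 0.17 or 0.11.

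The means of Egr3, Nr4a2, Nr4a3 and Homer1 were higher in CSD mice. Egr3, a zinc finger factor of the same family as Egr1 with a part in long-term memory, ranged from 9.38 through 9.54 to 9.76 in HC mice and from 9.24 through 9.78 to 9.9999 in CSD mice. Of the 6 CSD mice, 4 lay above the HC mean, and the lowest array of all was also a CSD mouse, replicate 2. The difference was 0.13 (SE 0.12; limma adjusted p = 0.830, exact permutation p = 0.320), and ran from 0.069 without CSD replicate 8 to 0.22 without CSD replicate 2. Nr4a2 (Nurr1), known for its part in dopamine neurons and in deep-layer cortical neurons, differed by 0.18 (SE 0.17; limma adjusted p = 0.838), by 0.078 without HC replicate 5, 0.12 without CSD replicate 8 or 9 and 0.28 without CSD replicate 6. Nr4a3 (Nor1) differed by 0.01 (SE 0.11). Homer1 encodes scaffold proteins that tie group I metabotropic glutamate receptors to intracellular calcium stores, and its short isoform Homer1a is the one induced by activity. The probe set does not tell the isoforms apart. Its level was 10.84, 10.99 and 11.12 in HC mice and 10.91, 11.20 and 11.25 in CSD mice (lowest, median and highest), with 4 CSD mice above every HC mouse and 2 in the lower part of the HC range. The difference was 0.13 (SE 0.07, 95% interval -0.02 to 0.28; limma adjusted p = 0.663, exact permutation p = 0.102).

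**Figure D2:**
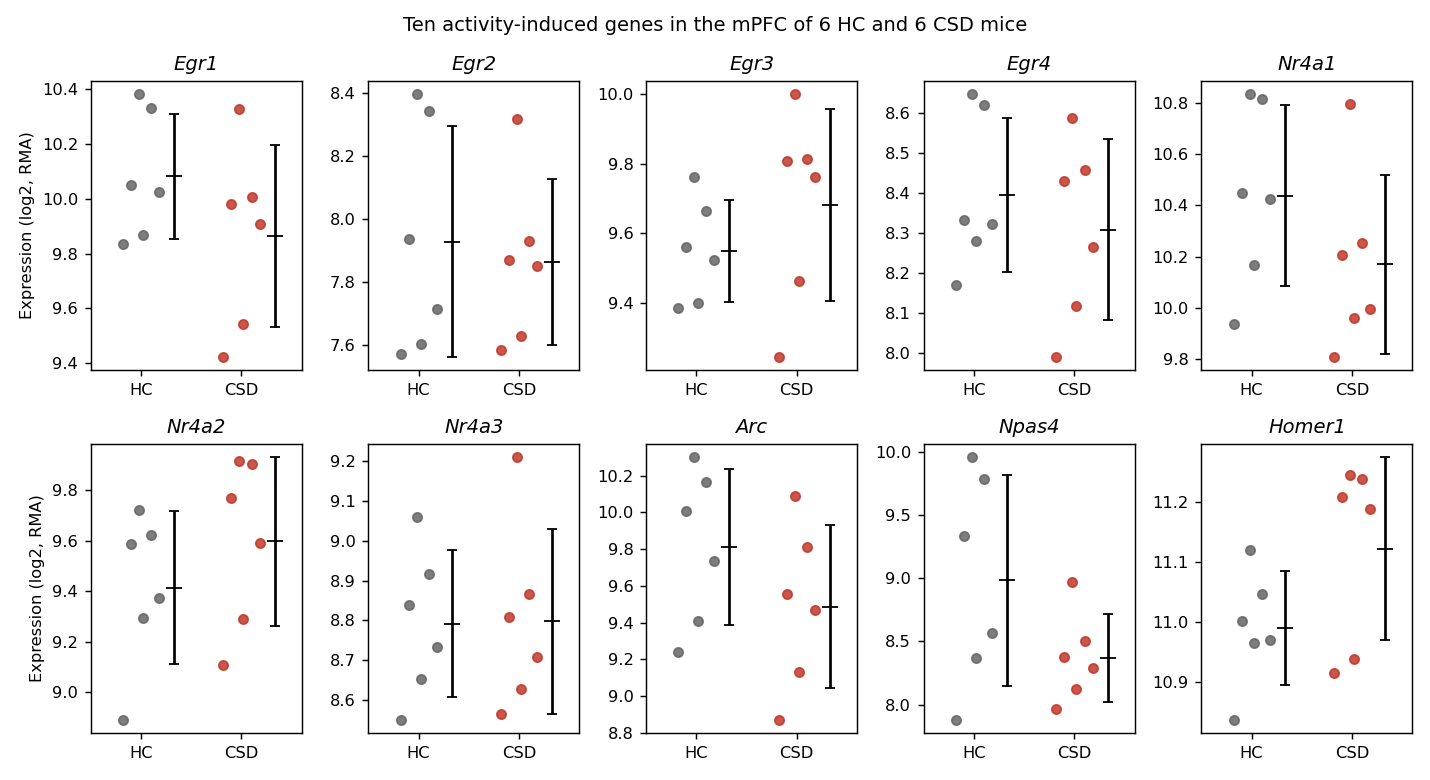
Expression of each gene (log2, RMA) in the 6 HC mice (grey) and 6 CSD mice (red). Each point is a mouse, the bar beside each group is the mean ± SD, and each panel has its own vertical scale. The groups overlap in all 10 panels, and Npas4 spans from 7.88 to 9.96 in HC but only from 7.97 to 8.97 in CSD.

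Mice within a group differed far more for these genes than for a usual gene. The SD between mice of the same group was 0.302 at the median of the 10 genes and 0.096 at the median of all genes. Of the 10, 9 lay above the 95th percentile of all genes, led by Npas4 (0.640) and Arc (0.433). Homer1, with an SD of 0.128, was the exception and exceeded 76.7% of genes. The SD was larger in CSD than in HC mice for 7 of the 10, whereas 73.3% of all genes had the larger SD in HC.

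The same mice were high or low for nearly the whole group of genes. HC replicate 2 or 4 was the highest HC array for 10 of 10 genes, and HC replicate 1 or 5 the lowest for 10 of 10. CSD replicate 2 or 6 was the lowest CSD array for 10 of 10, and replicate 8 or 9 the highest for 9, with replicate 7 highest for Homer1. Averaged over the 10 genes, HC replicate 4 lay 0.36 above and HC replicate 1 lay 0.36 below its group mean (-0.36). CSD replicate 8 lay 0.35 above, and CSD replicate 2 deviated by -0.34. These averages span about as wide a range in either group.

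**Figure D3:**
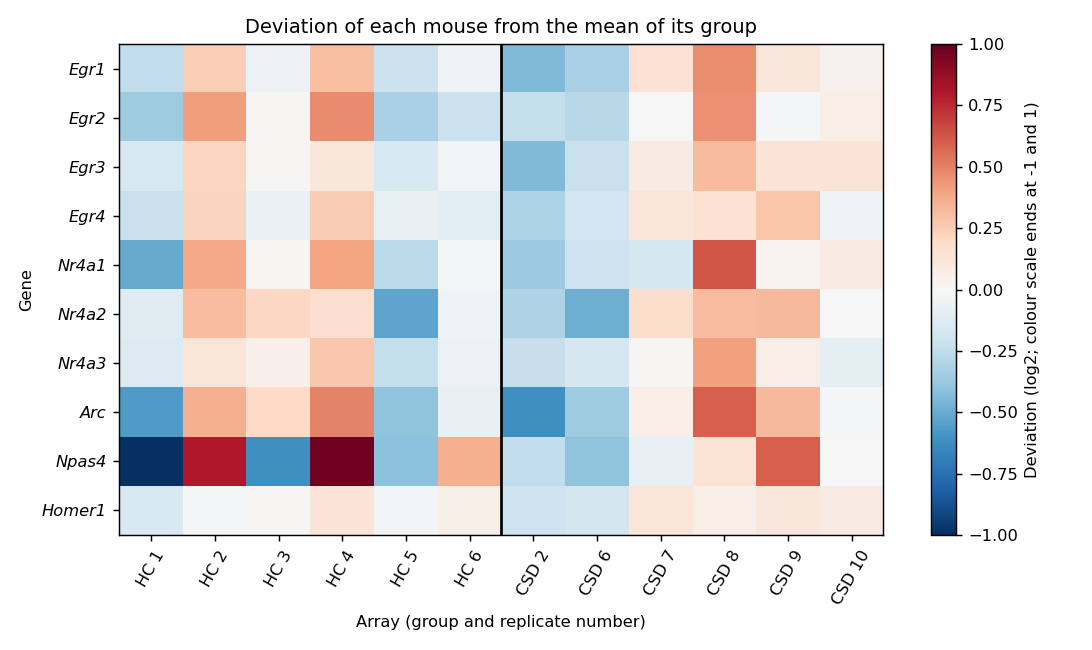
Deviation of each mouse (columns) from the mean of its own group for the 10 genes (rows), in log2 units, with red above and blue below the group mean. Columns tend to be of 1 colour throughout: HC 2, HC 4 and CSD 8 are high, and HC 1, HC 5, CSD 2 and CSD 6 are low.

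After the group means were removed, 45 of 45 pairs of the 10 genes correlated positively over the 12 mice. Pearson's r had a median of 0.803, and 44 pairs passed an adjusted permutation p under 0.05 (100000 permutations, Benjamini-Hochberg over the 45 pairs), as did 43 by Spearman's rho. Without the 2 mice farthest from the median of the first gene of a pair, 45 remained positive with a median of 0.792. The median r was 0.867 within HC and 0.853 within CSD mice. The closest pair was Egr1 and Egr3 (r = 0.957, rho = 0.909, adjusted permutation p = 0.000562 and 0.00222, r = 0.938 without the 2 farthest mice). Egr1 and Arc followed (r = 0.944, rho = 0.923, adjusted permutation p = 0.00045 and 0.00126, r = 0.910 without the 2 farthest). The pair that missed the threshold was Nr4a2 and Npas4 (r = 0.545, rho = 0.545, adjusted permutation p = 0.0615 and 0.0568). All genes of an array share its RNA, hybridisation and scaling. With each array centred on its median, 39 pairs passed. Pairs of genes outside the 10 were not counted, so these numbers have no share over all genes beside them.

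Arc and Egr1 were the genes most tied to the rest, with median r of 0.900 and 0.895 with the other 9. Npas4 (0.679) and Homer1 (0.688) were the least tied. Outside the 10, the genes whose deviations most resembled the mean of the 10 over the 12 mice were Midn (r = 0.961), Gfod1 (0.952), 2700081O15Rik (0.943), Fosb (0.943) and Elfn2 (0.932). Midn encodes midnolin, which carries immediate early proteins to the proteasome, and Fosb is a member of the AP-1 family. Of 29 other immediate early genes, 13 exceeded an r of 0.7, compared with 4.02% of all genes outside the 10.

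Because the 10 genes rose and fell together from mouse to mouse, the groups were also compared within arrays, an analysis chosen after the values were seen. For each pair of the 10, the log2 difference between both genes on the same array was compared between groups. Only its change between groups can be read, since the brightness of different probe sets is not comparable. Egr3 minus Egr1 was -0.72 at the lowest, -0.50 at the median and -0.45 at the highest in HC mice. In CSD mice it was -0.33, -0.18 and -0.08. Every CSD mouse therefore lay above every HC mouse. This was the only pair of 45 without overlap (2.22%). Egr3 alone differed between groups by 0.13 and Egr1 alone by -0.22, and both enter the change of this pair. The difference between groups was 0.35 (SE 0.06), with an exact permutation p of 0.00216, the smallest that 6 against 6 mice allows, and an adjusted p of 0.0731 over the 45 pairs (exact permutation tests). An exact permutation p under 0.05 was reached by 17 pairs, and 0 passed after adjustment. The pairs share genes and are not independent.

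A fit with the Egr1 level of each array as a covariate, also chosen after the values were seen, covered all 29837 other probe sets. It estimated a slope on Egr1 for each probe set, whereas the log2 difference subtracts the whole Egr1 level, so the estimates differ. At equal Egr1 level, Egr3 was higher in CSD mice by 0.29 (SE 0.05, 95% interval 0.19 to 0.40; limma adjusted p = 0.124). Nr4a2 was higher by 0.39 (SE 0.11; limma adjusted p = 0.308). Both passed the unadjusted threshold with a fold of at least 1.2, making 2 of 9 genes against 0.957% of named genes. Homer1 at 0.21 (SE 0.05; limma adjusted p = 0.242) and Nr4a3 at 0.15 (SE 0.05; limma adjusted p = 0.440) passed the same p without the fold, making 4 of 9 against 8.65% of named genes. Arc and Nr4a1 differed by -0.01 (SE 0.09) and -0.03 (SE 0.10) at equal Egr1 level, and Npas4 by -0.28 (SE 0.27). None of the 9 passed after adjustment, and neither did any other probe set. Egr1 itself differed by -0.22, so this fit raises the CSD estimate of any gene that rises with Egr1. Of the 9, 8 correlated with Egr1 at r above 0.7, as did only 699 of 17646 other genes. The shares over named genes are therefore no like background for the 9, and none was computed among genes that correlate with Egr1.

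With Arc in place of Egr1 as the covariate, Egr3 differed by 0.28 (SE 0.06; limma adjusted p = 0.220), and with Nr4a1 by 0.27 (SE 0.07; limma adjusted p = 0.352). The adjusted limma p of Egr3 ranged from 0.0709 to 0.444 over all alternatives of this fit. Nr4a2 kept a difference of 0.39 with Arc and 0.35 with Nr4a1 as the covariate.

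**Figure D4:**
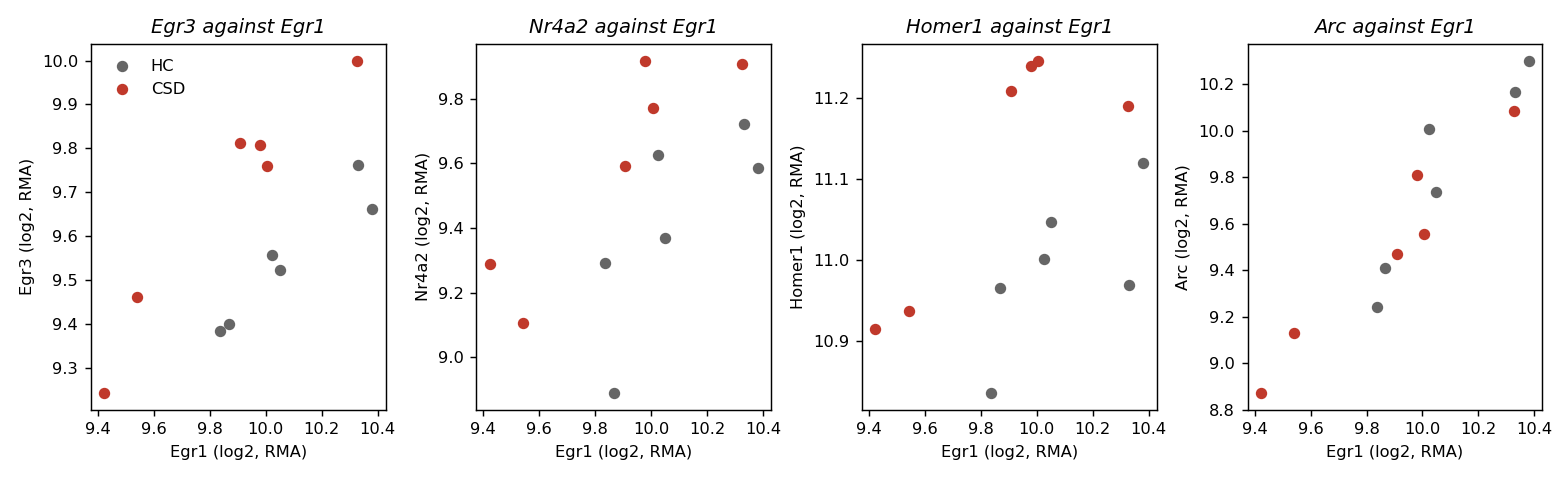
Level of Egr3, Nr4a2, Homer1 and Arc (vertical axes, log2, RMA) against the Egr1 level of the same array (horizontal axes) in HC (grey) and CSD (red) mice. CSD mice lie above HC mice of like Egr1 level for Egr3 (0.29 at equal Egr1 level), whereas the groups share a line for Arc (-0.01).

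**Figure D5:**
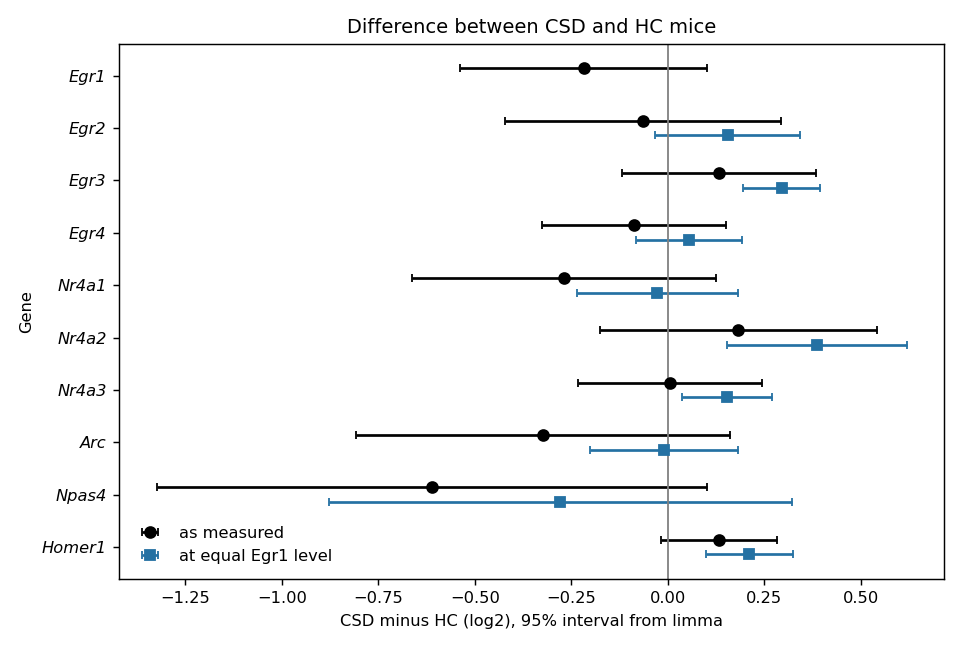
CSD minus HC difference of each gene (log2) with its 95% interval from limma, as measured (black circles) and at equal Egr1 level (blue squares; not defined for Egr1). All 10 black intervals include 0, and the blue intervals of Egr3, Nr4a2, Nr4a3 and Homer1 do not.

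Genes outside the 10 that parted from Egr1 without overlap between groups were few. Among 17646 other genes, 6 (0.034%) had a log2 difference from Egr1 without overlap between groups, all higher in CSD mice: Fosb, Fosl2, Inhba, Nptx2, Ptgs2 and Lcn2. Egr1 itself differed by -0.22, and subtracting it raises the CSD minus HC difference of every gene by that amount. The shared upward direction is therefore partly built in. Of these, 5 belong to the 49 measured genes of the lists of other immediate early and delayed activity-induced genes described next. Fosb and Fosl2 are AP-1 subunits, Inhba encodes activin A, Nptx2 a secreted pentraxin that clusters AMPA receptors and Ptgs2 cyclooxygenase-2. Lcn2 (lipocalin 2) is an acute-phase protein. Its own level, without regard to Egr1, was higher in CSD mice by 1.28 (SE 0.44), and its r with Egr1 was 0.63. The own levels of the other 5 were higher by 0.15 to 0.23, with r of at least 0.845. The mean of Fosb minus Egr1 was higher by 0.42 and that of Ptgs2 minus Egr1 by 0.45, given with no test because the genes were picked for not overlapping. The share without overlap was 0.715% among the 699 genes that correlated with Egr1 at r above 0.7, and 5 of 21 among those of the activity lists. Subtracting the whole Egr1 level removes variation between mice best for genes that vary about as widely as Egr1 (within-group SD 0.285). Fosb varied that widely (0.296), whereas Elfn2, which followed the mean of the 10, did not (0.068). Spread was not matched, so 0.715% is no like background for 5 of 21. All 6 share the Egr1 values with Egr3, so they are not independent of it. No gene outside the 10 parted without overlap from Arc, Nr4a1, Npas4, Egr2 or Nr4a2. From Egr3, Egr4 and Nr4a3 the numbers were 5 (0.0283%), 2 (0.0113%) and 3 (0.017%), and 171 (0.969%) parted from Homer1. The reference genes differ in their spread between mice, so these numbers cannot be compared with each other.

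The rest of the activity program was described from 4 lists. Of 29 other immediate early genes, 21 had lower and 8 higher means in CSD mice, with a median difference of -0.06. Dusp1, a phosphatase that switches off MAP kinases, was 10.74 ± 0.38 in HC and 10.31 ± 0.17 in CSD (difference -0.43, limma adjusted p = 0.453, exact permutation p = 0.0390). It and Ccn1, a matricellular protein (-0.28, limma adjusted p = 0.570, exact permutation p = 0.0325), were the 2 that passed the unadjusted threshold, against 0.6% of named genes in that direction. Over this list and the delayed genes together, that count of 2 ranged from 1 (without CSD replicate 7 or 10) to 5 (without HC replicate 1) when 1 mouse was left out. Junb, an AP-1 subunit, differed by -0.25 (limma adjusted p = 0.494, exact permutation p = 0.0368) and Jun, another, by 0.26 (limma adjusted p = 0.283, exact permutation p = 0.00866), both under the 1.2-fold limit, so 0 passed as higher, against 0.0793% of named genes. Fos, the most used marker of neuronal activity, differed by -0.25 (limma adjusted p = 0.738).

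Of 20 measured delayed activity-induced genes, 8 had lower and 12 higher means, the median difference was 0.01 and 0 passed the unadjusted threshold in limma. The 3 with the smallest p were Bhlhe40 (-0.16), Inhba (0.15) and Ptgs2 (0.23), with limma adjusted p of 0.633, 0.656 and 0.757. At equal Egr1 level, 3 of 29 immediate early genes (Fosb, Fosl2 and Jun) were higher at the unadjusted threshold with a fold of 1.2. The same held for 2 of the 20 delayed genes (Ptgs2 and Nptx2), and 0 of either list were lower. Among named genes 0.957% passed, higher and lower genes counted together. Without the fold limit, 4 of 29 and 5 of 20 were higher, against 8.65% of named genes in both directions together. In that count, 1 of 29 was lower (Dusp1, by -0.26, limma adjusted p = 0.552) and 0 of 20. The limit given above for genes that rise with Egr1 applies here too. Fosb differed by 0.42 (SE 0.06; limma adjusted p = 0.110) and Ptgs2 by 0.43 (SE 0.07; limma adjusted p = 0.124).

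The pathway that runs from calcium to the nucleus (19 genes measured) and the binding partners of the 10 genes (18 measured) gave 0 genes past the unadjusted threshold with its fold in limma. Their medians were -0.00 and -0.03. Among the former, Elk4, an SRF cofactor, differed by -0.10, Cacna1c, an L-type calcium channel, by 0.13 and Map2k1, a MAP kinase kinase, by -0.05. Among the latter, Sh3gl3 (endophilin A3) and Dnm2 (dynamin 2), endocytic partners of Arc, both differed by -0.09 and Grm5, a receptor bound by Homer1, by 0.07.

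Of 5 markers of excitatory cortical neurons, 0 passed the unadjusted threshold in limma and none was at the noise level. Their mean level spanned 11.37 to 11.61 in HC and 11.36 to 11.53 in CSD mice. Oligodendrocyte markers were lower in CSD mice for 5 of 5 genes at the unadjusted threshold, against 0.6% of named genes in that direction. After adjustment 0 of these 5 markers passed. The mean level of the oligodendrocyte markers spanned 10.31 to 10.79 in HC and 9.65 to 10.22 in CSD mice. Their deviations gave r = -0.20 and rho = -0.15 with those of Egr1 over the 12 mice (permutation p = 0.548 and 0.679, adjusted 0.861 and 0.885). None of the 10 marker lists tested against Egr1 passed, with r from -0.20 to 0.46 and adjusted permutation p of at least 0.7225 for r. Within groups, r with Egr1 was 0.85 in HC and 0.15 in CSD mice for excitatory markers, 0.64 and -0.51 for layer 6b and claustrum and -0.69 and 0.17 for striatal neurons, each over 6 mice and with no test. The part of cell composition in the results was not tested, and in bulk tissue fewer cells of a type and less RNA per cell cannot be told apart. Array medians lay between 7.50 and 7.69 and HC replicates 2 and 6 had the lowest median correlation with their group (0.992 and 0.991). Without both, Npas4 differed by -0.32, Egr3 at equal Egr1 level by 0.30 and Egr3 minus Egr1 by 0.34.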

How the data were processed

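Total RNA (200 ng per mouse) was labelled and hybridised to Affymetrix Mouse Gene 1.0 ST arrays, 1 per mouse. The deposited values are log2 expression that the authors made with RMA in Affymetrix Expression Console (versions not given in the sources used here), which subtracts background, normalizes arrays to each other and sums probes into 35556 probe sets. RMA pulls arrays to a shared distribution, so a shift of most genes would not be seen. The number of arrays limits precision. The 20th percentile of all values, 5.75, was taken as system noise, because the LOWESS of the coefficient of variation (span 0.2) turned linear only at 10.24, above the median of 7.57. Lower values were raised to it (4.67% of those kept), and 5718 probe sets never above it were left out. Groups came from the labels. A platform table named 21789 probe sets with 1 gene, 1621 with several (not used for genes) and 12146 with none, and the brightest probe set stood for a gene.

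CSD and HC were compared with limma 3.58.1 (R 4.3.3; lmFit, eBayes, two-sided) and the methods' t-test, and single genes with exact permutation tests, in Python 3.11.15. Fits were tested on simulated data. P-values measure the spread between mice. The 10 genes, the lists and the rule for named genes (the 10, the 3 smallest p of each pathway list, the first markers of each cell type and the 5 most similar genes) were chosen with earlier results of these data known, and marker genes are summarised by list. Ccn1, Fos, Fosl2, Nptx2 and Lcn2 were named after their values were seen. Other marker lists (inhibitory neurons, layer 6b and claustrum, striatal neurons, astrocytes, microglia, endothelial cells, blood, choroid plexus) gave 0 genes past the unadjusted threshold with its fold. Alternatives changed the test, fold limit, floor, filter, noise level, probe sets, scaling, variance model, array weights and arrays.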

Additional observations from a re-analysis of the deposited data

How the results depend on the processing

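None of the 10 genes was called under any of the 26 alternatives. The number past the unadjusted threshold, 0 as reported, was 0 to 2 with 1 array left out: 1 (Npas4) without HC replicate 1 and 2 (Egr1 and Nr4a1) without CSD replicate 8. Numbers 2 and 6 occur in both groups, and same-numbered mice deviated from their group means with correlations of -0.21 and -0.04. The labels do not say that a number pairs mice, and 2 correlations cannot decide whether such mice share anything else. With that number as a replicate block, which rests on 4 mice, 5 of the 10 and 5 other activity-induced genes passed the unadjusted threshold. After adjustment 0 of the 10 were called in that fit. Its share over all genes was not computed, so these counts cannot be read as a result about the activity-induced genes. The differences of Egr3, Nr4a2, Nr4a3 and Homer1 turned to -0.29, -0.35, -0.23 and -0.082 with this block. Among the 49 other activity-induced genes, 2 as reported, the count was 1 by the methods' t-test, 1 without HC replicates 2 and 6, 5 without a fold limit, 0 at a fold of 1.5 and 1 to 5 with 1 array left out (5 without HC replicate 1). At equal Egr1 level the count of 2 became 4 without a fold limit. Egr2 ranged from -0.15 to 0.030 with 1 array left out (0.019 without HC replicate 2, 0.030 without HC replicate 4). Nr4a3 ranged from -0.077 to 0.059, and was -0.011 with array weights and -0.0083 with arrays centred on their medians. The cause of these changes was not tested. Egr3 minus Egr1 ranged from 0.31 to 0.38 with 1 array left out. Correlated pairs numbered 41 without HC replicates 2 and 6 and 39 with arrays centred on their medians. Egr4 ranged from -0.14 to -0.023 with 1 array left out. With 6 mice per group, the printed intervals give the differences that these data leave possible.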
